A study of Mus musculus with 15 samples.

Results

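The mesodermal progenitors that a mouse induced pluripotent stem cell (iPSC) line forms after 5 days of directed differentiation were compared with the undifferentiated iPSC they came from. The comparison used 6 of the 15 samples of the series. The 3 day 0 samples are undifferentiated iPSC, labelled 3, 5 and 6. The 3 day 5 samples, with the same labels, were sorted for Kdr, the VEGF receptor also called Flk-1. The members are the probe sets of the expression array, and all 25206 of the 25206 in the table were used, each named by a gene identifier. Of these, 23740 carried a gene symbol and 1466 stayed unnamed. Every cultured sample comes from a single iPSC line that carries Acta2hrGFP, a green fluorescent reporter of the smooth muscle actin gene Acta2, so both stages share the line and its reporter. The labels do not describe the transgene, the culture medium or the factors added to reach day 5. The other 9 samples are cells sorted at day 13 as reporter negative (GFP-) or reporter positive (GFP+), and reporter-positive smooth muscle cells from the aorta.

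Pluripotent cells of the early embryo enter mesoderm through the primitive streak, where Nodal, Wnt and BMP signals switch on T-box and homeobox genes such as T, Eomes and Mixl1. Cells that leave the streak lose E-cadherin and turn on N-cadherin. Those that form lateral and extraembryonic mesoderm express Kdr, and cells of this kind can give rise to blood, endothelium, heart and smooth muscle.

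Each value is a log2 expression value made by robust multi-array averaging (RMA), so a difference of 1 is a 2-fold change. The 6 samples had medians from 4.084 to 4.216. Across probe sets, which are not independent replicates, pairs of samples correlated at r from 0.9873 to 0.9907 within day 0, from 0.9929 to 0.9950 within day 5 and from 0.9263 to 0.9342 between the stages. The array gives no call of presence. The 25th percentile of the values in the 6 samples was 2.82, and 26.1% of probe sets had a mean under 3 at both stages, where the array measures little above background and folds are uncertain. The samples are called biological triplicates with nothing on how separate the cultures were, so the p-values measure only the spread between samples. That spread was estimated within the 5 groups of all 15 samples. The SE and p-value of a gene therefore also depend on its spread in the day 13 and aortic samples. The day 0 cells are not labelled as sorted, and stage and sort cannot be told apart. No Kdr- cells of day 5 were among the samples, so the level of Kdr does not check its own sort. In RNA of bulk samples, fewer cells of a type and less RNA per cell cannot be told apart.

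At an adjusted p under 0.05 (limma, Benjamini-Hochberg over all probe sets), 28.8% of probe sets differed between the stages. Of these, 3744 (14.9%) were higher at day 5 and 3505 (13.9%) were lower. In 46% of all probe sets the values of the stages did not overlap. A change of at least 16-fold was reached by 38 probe sets that rose and 68 that fell. The counts for gene groups below are to be read against these shares. A member is said to have risen or fallen only where it passed this threshold, and log2 changes are day 5 minus day 0 with the standard error (SE) of the limma fit.

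Among the genes with the highest increases were Capn6, a calpain-like microtubule-binding protein, and Amot, which encodes the junction protein angiomotin. Capn6 read 3.47, 3.57 and 3.48 in the day 0 samples and 10.19, 10.17 and 10 in the day 5 samples. Amot read 4.07, 3.69 and 3.84 against 10.29, 10.54 and 10.43. In both, every day 5 sample stood above every day 0 sample by more than 6 log2 units. Prtg, which encodes the immunoglobulin-family receptor protogenin, rose from a day 0 mean of 4.56 (log2 change 5.44, SE 0.117, limma adjusted p = 6.25e-14), with day 5 values between 9.97 and 10.03. Nrp1, the VEGF and semaphorin co-receptor neuropilin 1, went from 3.00 to 8.52 (5.52, SE 0.113, adjusted p = 4.04e-14). The peripheral myelin protein gene Pmp22 rose 44.3-fold and Rgs5, a regulator of G protein signalling of mural cells, rose 58.6-fold.

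The largest decreases were found in genes of pluripotent and germ cells and in several genes without an obvious link to them. Spp1, which encodes the secreted matrix protein osteopontin, read 9.29, 9.42 and 9.37 at day 0 and 2.98, 3.87 and 3.65 at day 5 (log2 change -5.86, SE 0.283, adjusted p = 3.63e-10). Fbxo15, a known target of the pluripotency factors, went from 7.66, 7.66 and 7.77 to 2.13, 2.23 and 2.50. Tdrd12, a Tudor-domain gene of the piRNA pathway, fell from a mean of 7.53 to 2.27, and Lrrc34, a leucine-rich repeat gene, from 7.76 to 2.51. The day 5 values of Fbxo15, Tdrd12 and Lrrc34 lay below the 25th percentile, where the array separates levels poorly.

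The labelled cell states were described with sets of known markers. This is not an independent check, as the lists and naming rule were written with earlier results of these data known. All 6 iPSC markers (Nanog, Pou5f1, Sox2, Zfp42, Esrrb, Utf1) fell, and their mean per sample went from 7.99 to 8.10 at day 0 to 4.25 to 4.34 at day 5. All 6 mesoderm progenitor markers (T, Mixl1, Mesp1, Eomes, Pdgfra, Hand1) rose, from sample means of 3.79 to 4.02 to means of 8.38 to 8.61. Of 4 blood markers (Ptprc, Gata1, Itga2b, Hbb-bh1) 0 changed (limma, 0 at an unadjusted p under 0.05), with sample means of 2.88 to 3.08 at day 0 and 2.80 to 3.01 at day 5. Of 4 endothelial markers (Pecam1, Cdh5, Tie1, Tek) 2 fell, Pecam1 and Tek, from sample means of 5.39 to 5.45 to means of 3.43 to 3.98. Heart muscle markers (Tnnt2, Myh6, Myl7, Actc1) went from 3.67 to 3.82 to 3.82 to 4.44, and Tnnt2 rose. Neural markers (Pax6, Sox1, Tubb3, Nes) went from 3.67 to 4.0 to 3.50 to 3.77, and Nes rose. Endoderm markers (Sox17, Foxa2, Ttr, Afp) stood at 4.04 to 4.28 and then at 4.15 to 4.22. Fibroblast or feeder markers (Col1a1, Col3a1, Dcn, Thy1) went from 4.31 to 4.96 to 3.74 to 4.31, and Thy1 fell. Smooth muscle markers (Acta2, Tagln, Cnn1, Myh11) went from 5.29 to 5.41 to 4.71 to 5.24, and Acta2 and Tagln fell. The part of other cell types in the results was not tested. These markers are on different probe sets, whose levels are not comparable with each other, and only the change of each marker between stages is read.

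Naive pluripotency genes, which mark the ground state of mouse stem cells, fell almost as a body. Of 19 measured, 17 fell and 1 rose, with a median log2 change of -3.22 against -0.011 over all probe sets. Klf4, a Krüppel-like factor of that state, read 8.73, 8.50 and 8.44 at day 0 and 4.54, 4.31 and 4.53 at day 5, with no overlap. Nanog, a homeobox factor of the same state, read 10.23, 9.83 and 9.88 and then 7.68, 7.30 and 7.27 (log2 change -2.56, SE 0.186, adjusted p = 3.6e-08), again with no overlap. Tfcp2l1, a CP2-family factor, fell 24.1-fold. Esrrb, an orphan nuclear receptor, fell from a mean of 7.14 to 2.63, below the 25th percentile of values. The member that rose was Tbx3, a T-box gene that also acts in mesoderm, from 8.38, 8.17 and 8.0 to 9.32, 9.52 and 9.49 (log2 change 1.26, SE 0.151, adjusted p = 8.44e-06).

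**Figure D1:**
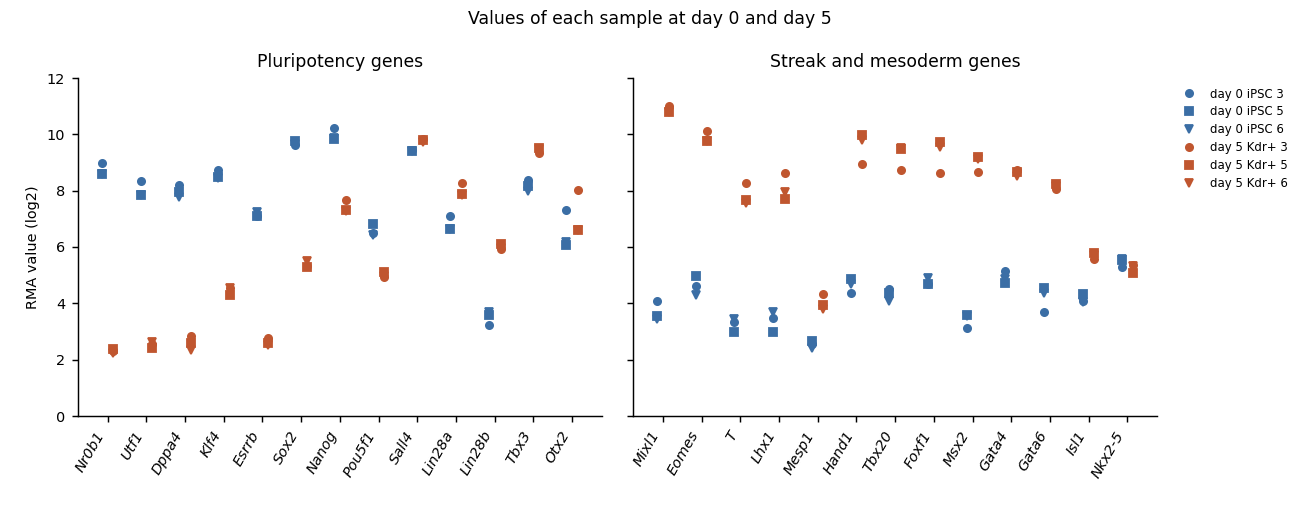
RMA values (log2) of each sample for 13 pluripotency genes (left) and 13 streak and mesoderm genes (right), with day 0 iPSC in blue and day 5 Kdr+ cells in orange and a symbol for each sample number. Nr0b1 and Utf1 drop below 3 at day 5, Nanog stays above 7, and Mixl1 stands above 10 in all 3 day 5 samples. Levels are not comparable between genes.

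The shared pluripotency genes, active in both naive and primed states, moved less evenly, with 9 lower and 3 higher of 18 (median -0.72). Sox2 fell from a mean of 9.68 to 5.38 (19.7-fold). Pou5f1, which encodes Oct4, read 6.48, 6.82 and 6.41 at day 0 and 4.95, 5.10 and 4.98 at day 5 (-1.56, SE 0.177). Its probe set may be shared with near-identical copies of the gene, so its size is uncertain. Sall4, a zinc finger factor, read 9.43, 9.40 and 9.41 at day 0 and 9.82, 9.79 and 9.73 at day 5 and did not pass (adjusted p = 0.135). The RNA-binding genes Lin28a and Lin28b rose, Lin28b from 3.24, 3.60 and 3.70 to 5.92, 6.12 and 5.98 (5.62-fold).

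The Nanog promoter is shown because it carries the joint site at which Oct4 and Sox2 are known to bind. The stretch of 100 bases, from RefSeq on GRCm38.p6 at chr6:122707370-122707469 (plus strand), lies upstream of the annotated start. The capitals mark the joint motif, the octamer letters TTTGCAT and the Sox letters ACAAT with any base between them, found 75 to 63 bases before the start.
Nanog promoter: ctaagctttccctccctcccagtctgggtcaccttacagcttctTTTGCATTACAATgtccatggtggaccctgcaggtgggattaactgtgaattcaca
On either strand, these letters were found in 8 of 32851 promoter windows of 300 bases (0.0244%). Among the 19 windows of naive pluripotency genes they were in 2, both of Nanog, which has overlapping windows for 2 starts, and among the 13 windows of shared pluripotency genes in 0. A match of letters is a description and does not show binding.

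Genes of the primed and formative states, which follow the naive state in the embryo, gave 6 higher and 2 lower of 12 (1 lower without day 0 sample 6). Fgf5, a ligand of the epiblast, rose from 3.94, 3.39 and 3.20 to 5.51, 4.56 and 4.58 (2.59-fold, adjusted p = 0.00069). Dnmt3b, a de novo DNA methyltransferase, rose 1.81-fold and Grhl2, an epithelial grainyhead factor, fell 8.17-fold. The largest log2 changes among the rises were in Cdh2 (4.55) and Lef1 (3.73), and Lef1 is also in the list of canonical Wnt targets. Fgf15 rose with overlapping groups (limma adjusted p = 0.0411) and lost its call without sample 5 or 6 of either stage. The other member that fell was Pou3f1 (log2 change -0.58, limma adjusted p = 0.0131). Otx2, a homeobox gene of the anterior epiblast, was 7.31, 6.07 and 6.18 at day 0 and 8.01, 6.59 and 6.59 at day 5. Its groups overlapped and it did not pass (adjusted p = 0.311), and in both stages sample 3 held the highest value. Genes of LIF signalling, which holds mouse stem cells in the naive state, split into 4 higher and 6 lower of 12 (2 higher without day 5 sample 5 or without sample 6). The receptor Lifr rose 2.67-fold and the kinase Jak2 2.61-fold, while the pathway's targets Socs3 and Pim1 fell 3.09-fold and 7.47-fold.

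Germ cell genes and genes of the 2-cell embryo, some of which are active in naive stem cell cultures, fell together. Of 23 germline genes 19 fell and 0 rose (0 also at an unadjusted limma p under 0.05, and 1 without day 0 sample 3), with a median of -1.51. Dazl, an RNA-binding gene of germ cells, read 5.90, 6.44 and 6.40 at day 0 and 2.91, 2.87 and 2.75 at day 5. Sycp1, a protein of the synaptonemal complex, fell from a mean of 6.54 to 2.23 and Mael, of the piRNA pathway, from 5.91 to 2.48, both to below the 25th percentile of values. The meiotic cohesin Smc1b fell 12.4-fold. Of 9 genes of the 2-cell stage 6 fell and 0 rose (limma, 0 at an unadjusted p under 0.05). Zscan4c, a telomere-linked zinc finger gene, went from 5.46, 5.27 and 5.71 to 2.68, 3.13 and 2.64, and Zfp981, a zinc finger gene, fell 82.7-fold. The Zscan4 genes are near-identical copies and their probe sets are uncertain as to which copy they measure.

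Enzymes that write and erase DNA methylation went in both directions, with 4 higher and 5 lower of 16. Dnmt3l, the catalytically inactive partner of the de novo methyltransferases, went from 8.82, 8.65 and 8.62 to 2.73, 2.71 and 3.12 (log2 change -5.85, SE 0.133, adjusted p = 1.04e-13). Tet2, which oxidises methylcytosine, went from 9.0, 8.79 and 8.80 to 5.11, 5.11 and 5.39, and Tet1 fell 4.04-fold, whereas Tet3 rose 1.62-fold. Dnmt3a stood at 7.13, 6.89 and 6.92 and then 7.15, 7.06 and 7.25, with overlapping groups. Polycomb genes, whose products keep developmental genes silent, gave 7 higher and 12 lower of 33. Cbx7, the chromobox subunit typical of stem cells, read 8.45, 8.06 and 7.96 and then 5.40, 5.24 and 5.16 (7.4-fold lower), while the chromobox gene Cbx2 rose 2.05-fold. Phc1 fell 3.66-fold, Jarid2 2.82-fold and Ezh1 2.71-fold, and Ezh2, the main methyltransferase of the complex, did not pass (adjusted p = 0.8).

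MicroRNA genes of stem cells moved in both directions. Of 15 in that list 6 had a probe set, of which 5 rose. Mir290a, the only measured member of its cluster, fell. Mir367, which rose at values below the 10th percentile, and Mir363, which fell, share a seed, the bases 2 to 8 that pair with targets. Mature sequences of the microRNAs, from RefSeq on GRCm38.p6, are shown with the seed in capitals because the seed is what the families share. The miR-290a-3p sequence lies at chr7:3218674-3218697 (plus strand), miR-302b-3p at chr3:127545275-127545297 (plus), miR-302d-3p at chr3:127545665-127545687 (plus) and miR-367-3p at chr3:127545779-127545800 (plus). The miR-18a-5p, miR-19a-3p and miR-20a-5p sequences lie at chr14:115043867-115043889, chr14:115044048-115044070 and chr14:115044183-115044205 (plus). The miR-363-3p and miR-18b-5p sequences lie at chrX:52741697-52741718 and chrX:52742381-52742403 (minus).
miR-290a-3p: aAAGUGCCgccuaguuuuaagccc
miR-302b-3p: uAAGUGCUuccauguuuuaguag
miR-302d-3p: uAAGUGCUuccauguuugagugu
miR-367-3p: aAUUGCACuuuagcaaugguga
miR-363-3p: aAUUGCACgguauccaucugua
miR-20a-5p: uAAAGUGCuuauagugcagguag
miR-18a-5p: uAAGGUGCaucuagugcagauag
miR-18b-5p: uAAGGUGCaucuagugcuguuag
miR-19a-3p: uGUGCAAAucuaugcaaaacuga
The probe sets cover the microRNA genes and not the mature molecules, so the values below bear on the precursor RNA.

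Mir290a, of the cluster most active in naive mouse stem cells, read 8.37, 8.48 and 8.05 at day 0 and 5.00, 3.84 and 4.38 at day 5 (log2 change -3.89, SE 0.247, adjusted p = 8.08e-09). Mir302b, of a cluster linked to primed cells and early mesoderm, read 1.88, 1.46 and 2.56 and then 4.91, 4.27 and 3.80 (2.36, SE 0.266, adjusted p = 4.51e-06). The 2 stages did not overlap in either gene. Mir302a, Mir302c and Mir302d rose by 2.19, 2.37 and 1.76 from day 0 means of 1.38, 1.43 and 2.03, all below the 25th percentile of values. Mir367, of the same cluster, rose from a mean of 1.23 to 1.75 (limma adjusted p = 0.00187), both below the 10th percentile of values (1.97). Mir363, fell from 4.45, 3.63 and 4.34 to 2.46, 2.30 and 2.41. The Mir17 to Mir92 and Mir106a to Mir363 clusters, which promote proliferation, gave lower values in Mir18 (-1.60), Mir19a (-1.70) and Mir20a (-1.65). Mir18b (-3.08) and Mir19b-1 (-2.02), chosen after their values were seen, were lower as well. Of 37 microRNA genes outside the stem cell clusters, 11 fell and 0 rose (limma, 0 at an unadjusted p under 0.05), among them Mirlet7d (-1.65) and Mirlet7f-1 (-1.59). Mir200c and Mir141, epithelial microRNA genes, were at 2.07 to 2.40 and 1.44 to 1.70 over the 6 samples and did not pass.

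Transcription factors of the primitive streak rose in 13 of 18 measured members and fell in 0 (limma, 0 at an unadjusted p under 0.05, and 1 without day 5 sample 3), with a median of 1.19. T, the founding T-box gene of the streak, went from 3.32, 2.99 and 3.45 to 8.27, 7.68 and 7.57 (log2 change 4.58, SE 0.203, adjusted p = 1.31e-10). Foxh1, the partner through which Smad proteins read Nodal, went from 5.41, 5.74 and 5.32 to 8.82, 8.69 and 8.71. Evx1 rose 3.69-fold, Nkx1-2, a homeobox gene of the caudal epiblast, 4.66-fold and Mesp1, a factor of the first cardiac mesoderm, rose from a mean of 2.55, below the 25th percentile of values, to 4.02. Foxa2, a factor of the anterior streak and endoderm, was 4.95, 5.13 and 5.45 and then 5.22, 5.22 and 5.19, with overlapping groups (adjusted p = 0.902). The endoderm list as a whole gave 1 higher and 3 lower of 18.

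Sp5, a zinc finger gene of the streak and a known target of Wnt, went from 3.44, 3.34 and 4.15 to 5.42, 4.77 and 4.72 (2.51-fold, adjusted p = 0.00167). Its promoter is shown because it holds the letters CTTTGAT, read by TCF and LEF factors, whose gene Lef1 rose 13.3-fold. The 100 bases are from RefSeq on GRCm38.p6 at chr2:70474772-70474871 (plus strand), with the match, 104 to 98 bases before the start, in capitals.
Sp5 promoter: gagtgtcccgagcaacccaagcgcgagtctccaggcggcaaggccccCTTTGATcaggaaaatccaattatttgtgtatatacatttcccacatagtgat
On either strand the letters occur in 1225 of 32851 windows (3.73%), in 4 of the 17 windows of streak factors (Sp5, Foxa2, Mesp1 and Msgn1) and in 0 of the 17 windows of canonical Wnt targets. Foxa2 holds the letters and did not pass.

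Factors of lateral and cardiac mesoderm rose in 13 of 28 members and fell in 1 (median 0.77). Msx2, a homeobox gene downstream of BMP, went from 3.11, 3.59 and 3.56 to 8.68, 9.20 and 9.12 (log2 change 5.58, SE 0.337). Foxf1, a forkhead factor of extraembryonic and splanchnic mesoderm, went from 4.69, 4.70 and 4.89 to 8.61, 9.74 and 9.56, and Gata4 and Gata6 rose 13.3-fold and 15.5-fold. Isl1, of the second heart field, rose 2.91-fold, and Nkx2-5, of committed heart cells, had overlapping groups at 5.29, 5.53 and 5.57 and then 5.37, 5.06 and 5.33. Hopx, a homeodomain-only factor, was the member that fell (3.6-fold). Paraxial mesoderm genes, of the tissue that forms somites, gave 2 higher and 1 lower of 17 (2 lower without day 0 sample 6). Meox1 rose 4.06-fold and Dll3 2.73-fold, and Tcf15, also read in naive cells, fell 3.81-fold.

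Hox genes of the A, B, C and D clusters, which mark position along the body axis, mostly did not pass. In the A cluster 1 of 11 rose and 0 fell (limma, 0 at an unadjusted p under 0.05). The highest log2 change was 1.92 in the A cluster and 0.95 in the B cluster. In the B cluster 4 of 10 rose and 0 fell (limma, 0 at an unadjusted p under 0.05). Hoxb1 went from 3.45, 3.45 and 3.61 to 4.39, 4.48 and 4.51, with no overlap (1.94-fold, adjusted p = 1.07e-05). In the C and D clusters 0 of 18 rose and 3 fell (limma, 1 and 4 at an unadjusted p under 0.05). Without day 0 sample 3 the C and D count was 1 lower, and without day 5 sample 3 it was 1 higher and 1 lower.

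**Figure D2:**
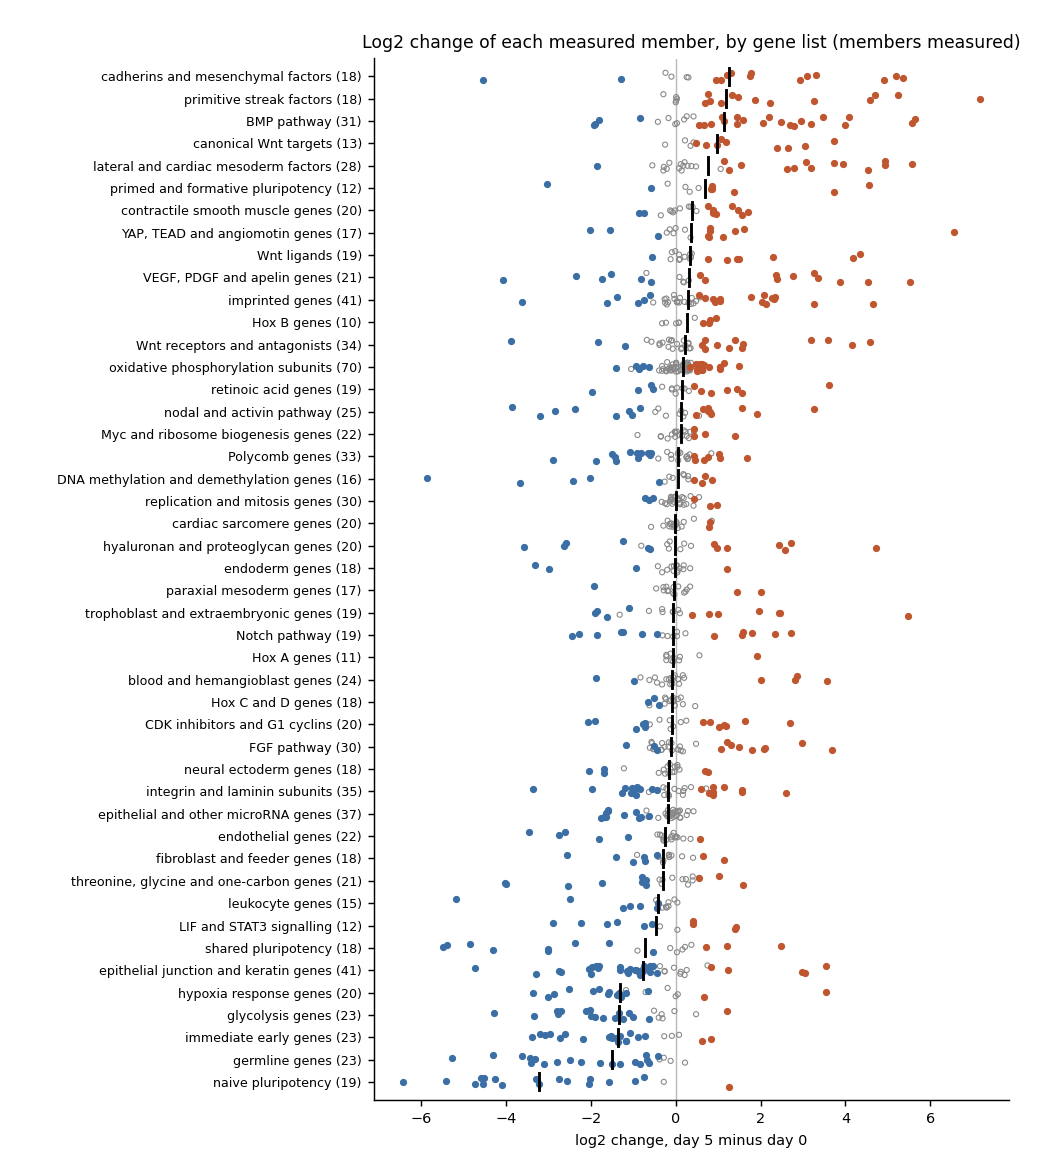
Log2 change from day 0 to day 5 (x axis) of each measured member of the gene lists with at least 10 members, sorted by median (black bar), with the number measured in brackets. Members that rose are orange, those that fell blue and those that did not pass grey and open; jitter within a line has no meaning. Naive pluripotency genes have a median of -3.22 and cadherins and mesenchymal factors 1.26.

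Genes of the BMP pathway, which patterns ventral and posterior mesoderm, rose in 20 of 31 members and fell in 4 (median 1.14). Among the ligands, Bmp2 went from 2.51, 2.78 and 3.01 to 6.80, 6.89 and 6.56 (log2 change 3.98, SE 0.204, adjusted p = 6.87e-10). Bmp5 went from 2.47, 3.05 and 3.59 to 7.30, 7.06 and 7.0 and Bmp7 rose 2.72-fold, whereas Bmp8b fell 3.7-fold. Every day 5 value of Bmp2 and Bmp5 lay above every day 0 value. Feedback and extracellular regulators rose as well, the inhibitory Smad6 11.2-fold, the pseudoreceptor Bambi 5.53-fold and the BMP-binding Bmper 9.07-fold, and the antagonist Grem1 fell 3.47-fold. The Id genes, direct targets of Smad1 and Smad5, did not move as a block. Id1 (6.13, 5.37 and 4.87, then 7.83, 7.35 and 7.36) and Id3 (5.50, 5.27 and 5.26, then 7.92, 8.04 and 8.18) rose, and Id2 fell from 8.64, 8.18 and 8.24 to 6.10, 6.68 and 6.52. Id4 fell 1.78-fold.

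The Nodal and activin pathway gave 9 higher and 8 lower of 25. The ligands Nodal and Gdf3 and the inhibitors Lefty1 and Lefty2 fell, and the inhibitor Fst rose. Nodal itself went from 6.70, 6.56 and 6.35 to 5.74, 5.56 and 5.25 (log2 change -1.02, SE 0.203, adjusted p = 0.00108). The related ligand Gdf3 fell 9.19-fold, from 7.35, 6.90 and 5.98 to 3.56, 3.54 and 3.53. The feedback inhibitor Lefty2 went from 8.04, 7.22 and 6.87 to 3.80, 3.29 and 3.49, and Lefty1 fell 5.19-fold. In all 4 genes day 0 sample 3 held the highest value of the 6. The activin subunit Inhbb fell 2.14-fold and Inhba fell from a mean of 4.08 to 2.68, and the convertase Pcsk6 fell 7.19-fold. The co-receptor Tdgf1 read 10.71, 10.79 and 10.60 and then 10.46, 9.99 and 10.21 and did not pass (adjusted p = 0.159). Its relative Cfc1 rose 3.79-fold and the activin-binding Fst 2.96-fold.

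Wnt ligands rose in 7 of 19 members and fell in 1. Wnt3, the ligand that starts the streak, went from 3.30, 3.08 and 3.11 to 7.74, 7.03 and 7.24, and Wnt5a, a ligand of cell movement, from 3.42, 3.85 and 3.38 to 7.82, 7.97 and 7.90. Wnt3a, of the later streak, stayed between 3.53 and 3.98 in the 6 samples. Canonical Wnt targets rose in 9 of 13 members and fell in 0 (limma, 0 at an unadjusted p under 0.05). Axin2, the feedback scaffold, went from 4.39, 4.16 and 4.24 to 7.06, 7.31 and 7.60 (log2 change 3.05, SE 0.142, adjusted p = 2.28e-10) and Nkd1 rose 6.26-fold. Of 34 receptors and antagonists 12 rose and 3 fell. The antagonist Dkk1 went from 4.17, 4.06 and 4.07 to 8.43, 8.81 and 8.82, while Sfrp1, another antagonist, went from 8.21, 8.06 and 7.91 to 4.43, 4.01 and 4.12. The stages were apart in both, in opposite directions. The agonist Rspo3 rose 17.7-fold, and its receptor Lgr5 rose from a mean of 2.62, below the 25th percentile of values, to 5.82.

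**Figure D3:**
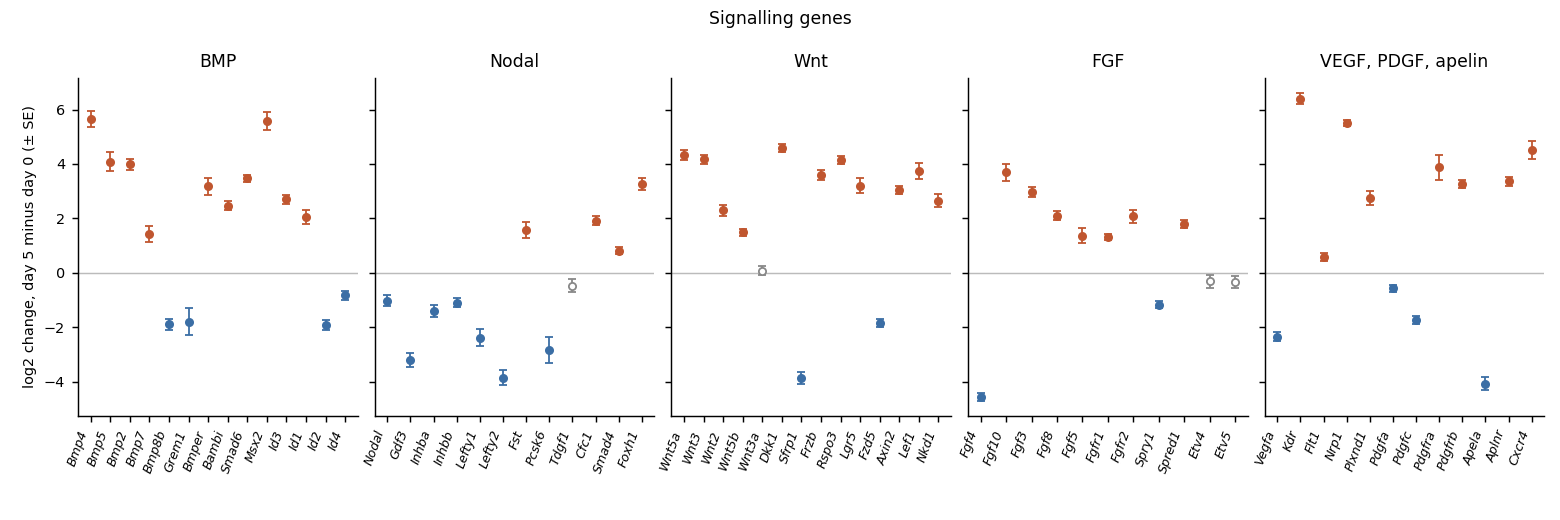
Log2 change from day 0 to day 5 with its standard error (y axis) for named members of 5 signalling pathways. The standard error is from the limma fit on all 15 samples, 3 a group. Orange points rose, blue points fell and open grey points did not pass. Lefty2 (-3.85) and Gdf3 (-3.20) fell beside a rise of Foxh1 (3.25), and among ligands Vegfa (-2.35) and Apela (-4.07) fell.

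FGF pathway genes gave 9 higher and 3 lower of 30. Fgf8, the ligand needed for cells to leave the streak, went from 3.73, 3.57 and 3.70 to 6.21, 5.53 and 5.54. Fgf3 rose 7.85-fold and Fgf10 12.9-fold, while Fgf4, the ligand of naive cells, fell 23.4-fold. Fgf4 and Fgf5 were counted in the naive and primed lists and not in this one. Receptors Fgfr1 and Fgfr2 rose 2.48-fold and 4.23-fold. The known target genes of the pathway differed. Spry1, a feedback inhibitor, fell 2.24-fold and Spred1, another, rose 3.46-fold, while Etv4 and Etv5 had log2 changes of -0.32 and -0.33 and did not pass (adjusted p = 0.36 and 0.358). In the retinoic acid list 7 of 19 rose and 4 fell (2 lower without day 0 sample 5, day 0 sample 6 or day 5 sample 3). Cyp26a1, which degrades retinoic acid, went from 3.13, 3.33 and 3.60 to 7.35, 6.73 and 6.80 (12.2-fold). Notch genes gave 6 higher and 7 lower of 19. The ligands Jag1, Jag2 and Dll1 fell 4.82-fold, 5.41-fold and 2.42-fold. The receptors went both ways. Notch2 and Notch3 rose 2.99-fold and 2.96-fold. Notch4 and Notch1 (the latter chosen after its values were seen) fell, with log2 changes of -0.79 and -0.45. The pathway gene Rbpj fell as well (log2 change -1.23). The target genes Hes1 and Hey1 rose 5.09-fold and 6.52-fold, Hey1 from 4.68, 4.72 and 4.73 to 7.41, 7.35 and 7.48.

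Receptors and ligands of the VEGF, PDGF, apelin and Cxcl12 systems changed in both directions. The list gave 10 higher and 6 lower of 21. Cxcr4, a chemokine receptor of migrating mesendoderm, went from 4.96, 4.81 and 4.73 to 9.30, 9.41 and 9.35 (log2 change 4.52, SE 0.325, adjusted p = 3.13e-08). Aplnr, the receptor of apelin and Apela, went from 3.52, 3.18 and 3.47 to 7.14, 6.54 and 6.58. Pdgfrb rose 9.62-fold and the semaphorin receptor Plxnd1 6.79-fold. Of the ligands, Apela went from 7.63, 7.38 and 7.85 to 3.24, 3.89 and 3.52, Vegfa from 8.18, 8.68 and 8.59 to 6.18, 6.21 and 6.02, and Pdgfc fell 3.34-fold. Other ligands rose, Vegfc from a mean of 4.51 to 6.90 (chosen after its values were seen) and Cxcl12 1.62-fold, the latter with no call without day 0 sample 5 (adjusted p = 0.0977) or day 5 sample 5 (limma adjusted p = 0.113). The co-receptor Nrp2, also chosen after its values were seen, did not pass (adjusted p = 0.73).

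Blood and hemangioblast genes gave 4 higher and 2 lower of 24 (4 lower in a fit without the aortic samples). Etv2, the ETS factor that opens the blood and endothelial lineages, went from 3.66, 3.20 and 3.65 to 5.35, 5.84 and 5.34 (4.01-fold, adjusted p = 6.75e-06). The ETS genes Fli1 and Ets1 rose 7.2-fold and 7.04-fold, Fli1 with 6.23 in day 5 sample 3 against 7.49 and 7.28. Tal1, the next factor in the blood lineage, was 3.67, 4.0 and 3.96 and then 3.81, 3.80 and 3.78, and Lmo2 did not pass either (adjusted p = 0.457). Endothelial genes gave 1 higher and 5 lower of 22. Flt1, a VEGF receptor, rose 1.5-fold. Tek, an angiopoietin receptor, fell from 6.13, 5.78 and 5.64 to 2.70, 3.17 and 3.42, Eng, a co-receptor of the TGF-beta family, fell 6.1-fold and Mmrn2 3.5-fold. These genes were read at day 0 above their day 5 level.

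Cadherins and mesenchymal factors rose in 12 of 18 members and fell in 2 (median 1.26). Cdh11, a cadherin of mesenchyme, went from 5.14, 4.67 and 4.16 to 9.93, 10.06 and 10.03. The protocadherin Pcdh7 went from 2.93, 3.27 and 2.55 to 8.33, 7.92 and 8.10 and Pcdh18 rose 29.8-fold. Cdh6 rose 9.91-fold and Cdh4 7.7-fold. The transcriptional repressors of epithelial genes rose too. Snai1 rose 2.1-fold, Zeb2 8.5-fold and Snai2 3.42-fold, the last from 5.06, 4.47 and 4.80 to 5.31, 7.17 and 7.17, and 5.25-fold without day 5 sample 3. Vim, the mesenchymal filament, rose 3.4-fold and Fn1, fibronectin, 2.32-fold.

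Of 41 epithelial junction and keratin genes, 27 fell and 5 rose (median -0.76). Epcam, an epithelial adhesion molecule, went from 8.78, 8.93 and 8.77 to 6.31, 6.01 and 6.01, Cldn6, a claudin of stem cells, fell 9.87-fold and Esrp1, an epithelial splicing factor, 3.52-fold. The members that rose included simple keratins and a desmosome plaque protein. Krt18 went from 5.48, 5.92 and 5.65 to 8.72, 8.66 and 8.59, Dsp from 5.88, 5.82 and 6.01 to 9.30, 9.55 and 9.49, and Lsr, of tricellular junctions, rose 2.34-fold. In these 3 genes every day 5 value lay above every day 0 value.

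Of 35 integrin and laminin subunit genes, whose products form basement membrane and its receptors, 9 rose and 13 fell. Lama4 rose 6.12-fold, Itga9 2.94-fold and Itga8 2.95-fold. The basement membrane linker Nid1 went from 8.27, 8.45 and 8.40 to 4.92, 5.14 and 4.99, Itga3 fell 3.94-fold and Lama1 2.39-fold. Of 20 hyaluronan and proteoglycan genes 7 rose and 6 fell. The hyaluronan synthase Has2 went from 4.83, 4.36 and 4.10 to 9.05, 9.27 and 9.17 (log2 change 4.73, SE 0.316, adjusted p = 1.42e-08). Vcan, which binds hyaluronan, rose 5.43-fold, Gpc3 5.96-fold and Gpc6 6.58-fold. Gpc4 fell from 6.79, 6.55 and 6.64 to 5.18, 3.58 and 3.34, and Sdc4 fell 12-fold. In the YAP and TEAD list 8 of 17 rose and 3 fell. Beside Amot, the factors Yap1 and Tead2 rose 1.77-fold and 3.06-fold, while Ccn1 and Ccn2, their known targets, fell 2.92-fold and 4.03-fold.

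Contractile genes of smooth muscle, the lineage the reporter marks, gave 8 higher and 2 lower of 20 (1 lower without day 0 sample 5, day 5 sample 5 or day 5 sample 6). The members that fell were Tagln (5.46, 5.24 and 5.54, then 4.42, 5.05 and 4.53) and Des (adjusted p = 0.0242), which lost its call in those fits. Acta2, the reporter gene, fell too, from 7.35, 6.94 and 6.74 to 5.44, 6.22 and 6.13 (adjusted p = 0.00175). Myocd, the co-activator that drives the contractile genes, rose from 3.16, 3.44 and 3.34 to 4.95, 4.72 and 4.71, and the cytoskeletal Tpm1 and Cnn2 rose 3.26-fold and 2.5-fold. Myh11, the myosin of mature smooth muscle, had overlapping groups (adjusted p = 0.734). In the sarcomere list of heart muscle 2 of 20 rose (1 without day 0 sample 3, day 0 sample 5 or day 5 sample 5) and 0 fell (limma, 0 at an unadjusted p under 0.05). Tnnt2 rose 1.75-fold.

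Genes of glucose use fell together with genes of the hypoxia response. Of 23 glycolysis genes 16 fell and 1 rose (median -1.33), and of 20 hypoxia response genes 13 fell and 2 rose (median -1.31). Slc2a3, a glucose transporter, went from 11.01, 10.97 and 10.83 to 8.12, 8.25 and 8.13. Pdk1, a kinase that inhibits pyruvate dehydrogenase, went from 8.73, 8.63 and 8.70 to 5.52, 5.25 and 5.25 (log2 change -3.35, SE 0.212, adjusted p = 8.05e-09). Hk2 fell 3.97-fold, while Ldha and Slc2a1 did not pass (adjusted p = 0.309 and 0.0548). Bnip3, of mitochondrial clearance, fell 10.4-fold and the mTOR regulator Ddit4 8.09-fold. Hif1a, the oxygen-sensitive factor, rose 1.58-fold at the RNA level, Eno3 2.32-fold and the lipoprotein receptor Vldlr 11.7-fold. Oxidative phosphorylation subunits gave 16 higher and 5 lower of 70 (2 lower without day 0 sample 5, day 0 sample 6 or day 5 sample 6, and 3 without day 5 sample 5). In other settings the lower count grew, to 8 in a fit on the 6 samples alone or with cyclic loess, and to 10 with weights on the samples. With median centring it was 3. Among the subunits, Uqcrh rose 2.19-fold and Ndufa2 2.05-fold, and Cox6b2, a testis-type subunit, fell 2.65-fold.

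Genes of threonine and glycine catabolism, on which mouse stem cells are known to depend, were among those that fell. Tdh, threonine dehydrogenase, went from 9.23, 7.91 and 7.89 to 4.52, 4.24 and 4.25 (16.1-fold, adjusted p = 2.19e-08). Gldc, of the glycine cleavage system, fell 5.78-fold, its partner Amt 3.32-fold and the amino acid transporter Slc7a3 16.3-fold. The list gave 3 higher and 8 lower of 21 (5 higher without day 0 sample 3).

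Genes of replication and mitosis mostly did not pass, with 3 higher and 3 lower of 30 (1 lower when any sample other than day 0 sample 3 was left out). Mki67, the proliferation marker, was 8.85, 9.32 and 9.35 and then 9.47, 9.69 and 9.63 and did not pass (adjusted p = 0.186). Regulators of G1 gave 7 higher and 6 lower of 20. Ccnd2 went from 6.35, 5.27 and 5.16 to 8.25, 8.30 and 8.33, Cdk6 rose 3.09-fold and the inhibitor Cdkn1b 2.03-fold. The retinoblastoma gene Rb1 went from 7.67, 7.82 and 7.95 to 5.88, 5.75 and 5.62, and its relative Rbl2 fell 3.77-fold. Myc rose 2.64-fold, and its list of ribosome biogenesis genes gave 4 higher and 0 lower of 22 (limma, 2 lower at an unadjusted p under 0.05, and 1 lower without day 5 sample 3 or in a fit without the aortic samples).

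Imprinted genes, read from a single parental copy and often tied to growth, gave 15 higher and 6 lower of 41. Mest went from 9.12, 8.42 and 8.13 to 11.87, 11.82 and 11.74 (log2 change 3.26, SE 0.229, adjusted p = 2.42e-08). Igf2, a fetal growth factor, went from 6.31, 5.97 and 5.80 to 7.75, 8.40 and 8.29. Asb4, a gene of vascular development, rose from a mean of 2.60, below the 25th percentile of values, to 7.25. Phlda2 rose 4.78-fold, Usp29 4.99-fold and Nnat 5.08-fold. Grb10, an adaptor that restrains growth, went from 6.55, 7.13 and 7.22 to 3.27, 3.24 and 3.51. The noncoding genes H19 and Meg3 had overlapping groups and did not pass (adjusted p = 0.36 and 0.902).

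Of 23 immediate early genes, which respond within minutes to stimulation and to handling, 18 fell and 2 rose (median -1.37). Fosb went from 7.23, 8.24 and 8.0 to 5.16, 4.37 and 4.38, Egr1 from 6.99, 7.64 and 7.33 to 5.21, 3.84 and 4.02, and Dusp1 fell 6.1-fold. The members that rose were Ier5 and Rhob (1.77-fold and 1.53-fold). In Fosb and Egr1 sample 3 was the lowest of day 0 and the highest of day 5. Leukocyte genes fell in 7 of 15 and rose in 0 (limma, 0 at an unadjusted p under 0.05). The count was 4 without day 0 sample 6 or without day 5 sample 6, and 3 without day 5 sample 3. Laptm5 went from 9.35, 9.24 and 8.87 to a day 5 mean of 3.98. Ptprc, which defines leukocytes, read 2.41, 2.23 and 2.22 at day 0 and did not pass (limma adjusted p = 0.195). Levels of the 2 genes are not comparable, and the part of leukocytes was not tested. Fibroblast and feeder genes gave 2 higher and 6 lower of 18 (1 higher when any sample other than day 0 sample 6 was left out). Lox, a collagen cross-linker, went from 5.23, 5.69 and 5.51 to 2.83, 3.10 and 2.81, and the collagen gene Col1a1 overlapped between stages.

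Trophoblast and extraembryonic genes gave 7 higher and 4 lower of 19. Gata3 went from 4.14, 4.47 and 4.09 to 6.34, 6.79 and 6.88, Plac1 rose 3.89-fold and Tdo2 rose from a mean of 2.46, below the 25th percentile of values, to 4.92. Tfap2c and Ascl2 fell 3.64-fold and 3.05-fold, and Elf5, a factor of trophoblast stem cells, stayed at 2.96 to 3.06. Neural ectoderm genes gave 2 higher and 3 lower of 18. The neural genes Olig2, Neurod1 and Map2 fell 3.26-fold, 3.25-fold and 4.13-fold, and Pax6 did not pass (adjusted p = 0.558).

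The 3 day 5 samples were closer to each other than the day 0 samples, with a median SD per probe set of 0.115 against 0.154. Among the 100 largest changes, Foxf1 (SD 0.607), Hand1 (SD 0.54), Lhx1 (SD 0.466) and Tbx20 (SD 0.441) were among the most variable at day 5 and Cdh1 (SD 0.0115) was the least. Sample 3 often stood apart from the other samples of day 5. Of the 13 streak factors that rose, sample 3 was the highest in 10, sample 5 in 2 and sample 6 in 1, where over all probe sets that rose sample 3 was the highest in 38.7%. Of the 13 lateral and cardiac factors that rose, sample 3 was the lowest in 9, and of the 20 BMP pathway genes in 15, where over all probe sets that rose it was the lowest in 41.5%. T read 8.27 in sample 3 against 7.68 and 7.57, while Hand1 read 8.95 against 9.97 and 9.79. All 8 contractile genes that rose were also highest in sample 3. These counts were made after the values were seen and carry no test. Gsc and Cdx2 are the streak factors whose calls rest on single samples. Gsc (adjusted p = 0.0218) did not pass without day 0 sample 3 or 5 or day 5 sample 3 or 6 (limma adjusted p from 0.0556 to 0.071). Cdx2 (adjusted p = 0.00994) did not pass without day 0 sample 5 or day 5 sample 6 (limma adjusted p = 0.0642 and 0.0603).

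**Figure D4:**
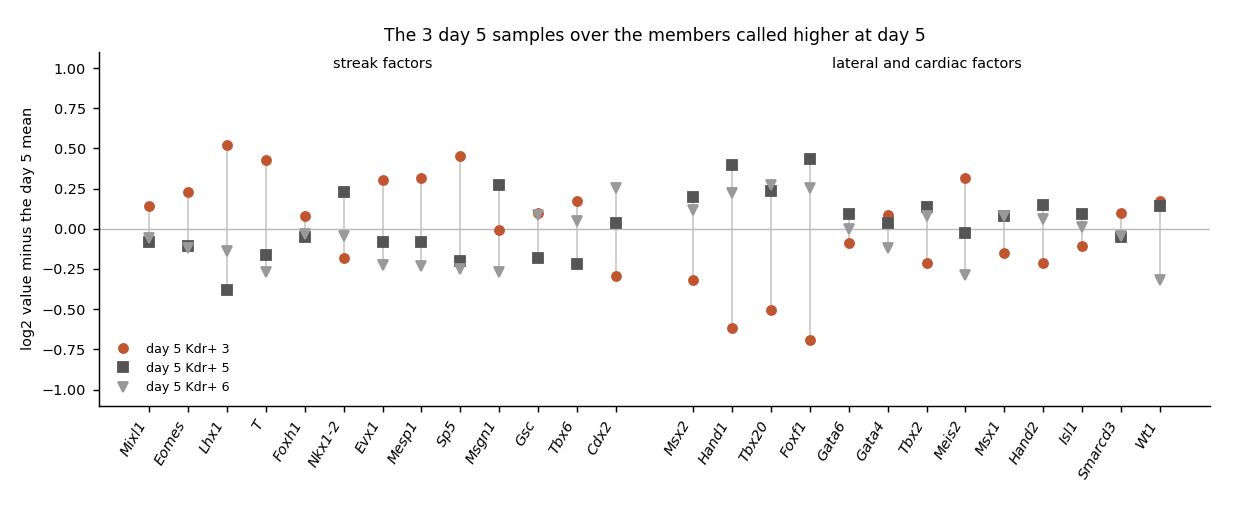
Difference of each day 5 sample from the mean of the 3 (y axis, log2) for the 13 streak factors and the 13 lateral and cardiac factors that rose, each ordered by log2 change. Sample 3 (orange circles) is highest in 10 of the streak factors and lowest in 9 of the lateral and cardiac factors.

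Set among all 15 samples, 1446 of the 3744 probe sets that rose stood higher in every day 5 sample than in each of the 12 others, and 745 of the 3505 that fell stood lower. Both counts were taken only among probe sets already called between day 0 and day 5, a choice that favours an extreme at day 5. The share over all probe sets was not computed, so the counts do not show an excess. Mixl1 had a mean of 10.87 at day 5 and 5.45 ± 0.681 (SD, n = 3) in day 13 GFP- cells, and 3.82 ± 0.465 in GFP+ cells. Hand1 stood at 9.57 at day 5 and at 4.94 to 5.44 in the day 13 means. Axin2 had means of 7.32 at day 5 and 4.43 and 4.48 at day 13. Other genes stood closer to their day 5 level. Cdh11 was 10.01 at day 5 and 8.94 and 9.76 at day 13, and Mest was 11.81, then 11.40 and 11.46, with 4.58 in aortic cells. Some genes that fell stood higher again at day 13, as in Vegfa, with means of 8.49 at day 0, 6.14 at day 5 and 9.46 and 9.52 at day 13, and in Pfkp, with 9.91, 5.62, 7.69 and 8.10. Nanog had means of 9.98 at day 0, 7.42 at day 5 and 4.41 and 3.79 at day 13. These levels are given as a description, and the later stages were not tested here.

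**Figure D5:**
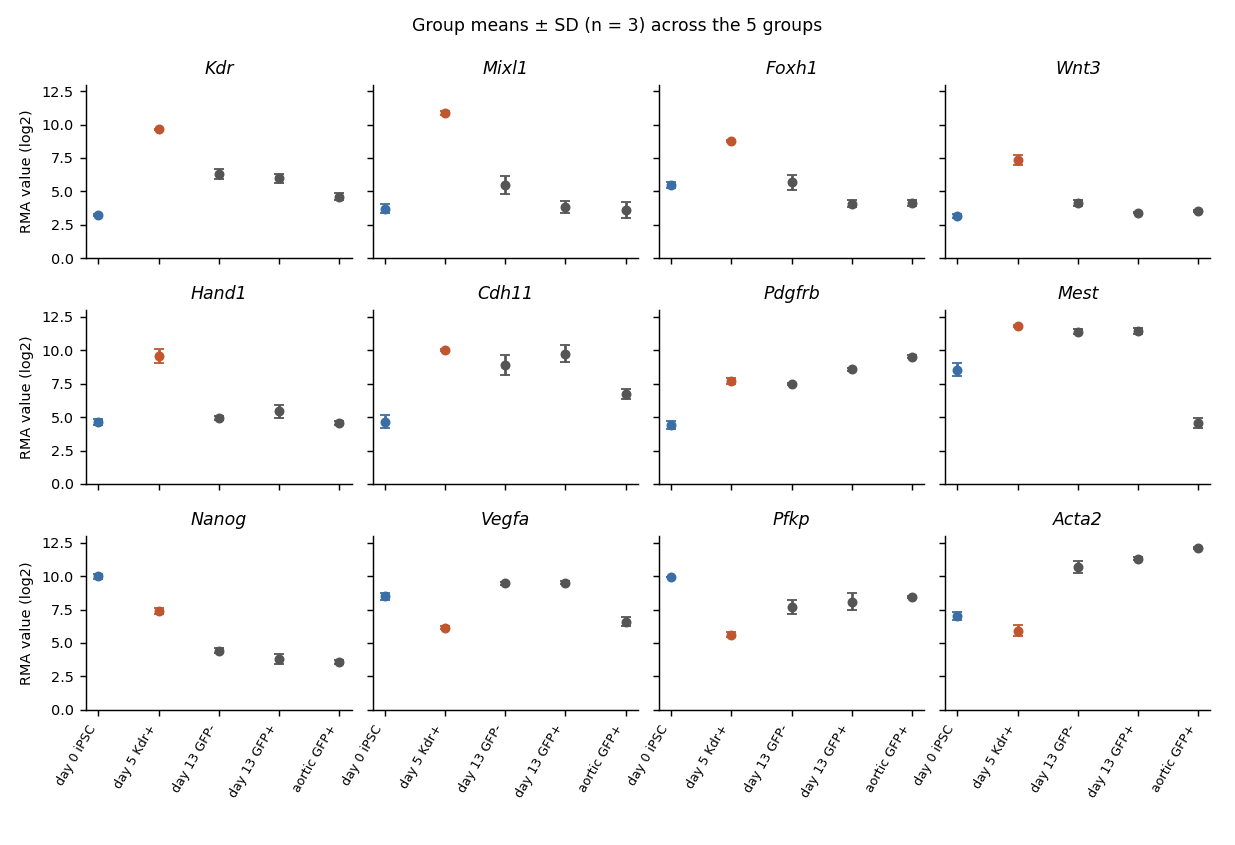
Mean ± SD (n = 3 samples) of the RMA value (log2) of 12 genes in the 5 groups of the series, with day 0 in blue, day 5 in orange and the later groups in grey. Kdr, Mixl1, Foxh1, Wnt3 and Hand1 are highest at day 5, Vegfa is lowest there, and Acta2 falls from 7.01 to 5.93 before it stands at 10.67 and above at day 13 and in the aorta.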

How the data were processed

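Total RNA of each sample was measured on an Affymetrix Mouse Gene 2.0 ST array. The deposited log2 values were made with RMA, and affy 1.36.1 and R 2.15.1 are named, per the submitters' processing notes. The sources used here name no genome build. All 25206 probe sets of the 15 samples were used as deposited, with no filter. Of these, 23185 were named by the platform annotation and a further 555 by gene identifier in RefSeq (GRCm38.p6).

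Day 5 Kdr+ was tested against day 0 iPSC with limma 3.58.1 in R 4.3.3, with a mean for each of the 5 groups over all 15 samples, so that the groups share an estimate of spread, and Benjamini-Hochberg adjustment over all probe sets at 0.05. Beside this fit, 18 other settings were tried (scaling, samples in the fit, moderation, a level filter, a replicate block and leaving out each sample). The number of samples limits the precision. Sample numbers were not shown to pair the stages. Deviations from the stage means correlated at -0.004, -0.014 and 0.068 for the same number and from -0.044 to 0.050 for different numbers. These correlations cannot decide whether samples of the same number came from the same culture.

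The comparison and the gene lists were chosen with earlier results of these data known. Genes were named by rule: Kdr and Acta2, the 12 highest and 12 lowest changes with groups apart, key members and up to 6 called members per direction of each list, cell type markers, and the most and least variable at day 5 among the 100 largest changes. Mir18b, Mir19b-1, Vegfc, Nrp2 and Notch1 were picked outside the rule, with their values in view. MicroRNA and promoter sequences came from RefSeq. Of 43 measured microRNA genes, 38 matched a mature sequence.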

Additional observations from a re-analysis of the deposited data

How the results depend on the processing

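Against 3744 higher and 3505 lower probe sets, a test against a change of 2-fold (limma treat) called 518 and 682. Leaving out each sample in turn gave 3150 to 3504 higher and 2973 to 3293 lower. Median centring gave 4475 and 2911 and cyclic loess 3354 and 3857, and with the replicate block the counts were 3790 and 3530 (4291 and 4077 in the 6 samples alone). A fit on the 6 samples alone, with no block, called 4517 and 4242. Weights on the samples (limma array weights) gave 4886 and 4634. Of the 471 named genes, 0 changed sign while called in the main fit or in the other setting. The level filter tested 365 of them and the other settings all 471. Sign changes of genes called in neither fit were not counted. The treat test ended 203 calls, median centring 15, cyclic loess 13 and the replicate block 4, and leaving out a sample ended 23 to 28. The sample numbers were not shown to pair the stages. With no call of presence, levels below the 25th percentile (2.82) cannot be told from background, and of the probe sets that fell 544 had a day 5 mean under 3.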
